A study of Mus musculus with 12 samples.

Results

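The colony-stimulating factors are secreted proteins that keep myeloid cells alive and make them multiply, mature and respond. CSF1 (macrophage colony-stimulating factor) acts through the receptor kinase CSF1R, on which most macrophages depend. CSF2 (GM-CSF) acts through a binding chain, CSF2RA, paired with a signalling chain, CSF2RB, and CSF3 (G-CSF) acts through CSF3R, best known from neutrophils. Mice also carry Csf2rb2, a copy of Csf2rb whose product serves the interleukin-3 receptor. The 8 genes of this family were chosen by symbol from the 41388 genes of the count tables. No measured value entered that rule, but earlier results of these data were known when it was set. All 8 had enough counts in some group to be tested.

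RNA was sequenced from mouse peritoneal macrophages drawn by thioglycolate, an irritant broth, taken on day 4 after its injection and stimulated the next day for 8 h. The groups were LysM-PPARg macrophages with palmitate (250 uM) plus LPS (100 ng/ml), LysM-Cre controls with the same, LysM-PPARg macrophages with vehicle (BSA in PBS), and LysM-Cre controls with vehicle, with 3 libraries each and 12 in all. Every group carries LysM-Cre, a recombinase driver of myeloid cells, and in the LysM-PPARg groups, which the labels call knockout, it is meant to remove PPARγ, the fatty acid-activated nuclear receptor encoded by Pparg. The labels do not say how many mice gave the libraries or whether replicates came from separate mice, so p-values measure the spread between these libraries, which may be technical.

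Libraries held 17960457 to 22696385 counts. The gene-level Pparg count went against the label: it was 91.0 to 111 CPM (counts scaled to library size, normalised between libraries by TMM) in the 3 vehicle libraries labelled knockout and 61.0 to 62.3 in the control ones, and 3.59 to 5.04 against 2.86 to 4.14 CPM after palmitate plus LPS. Exons outside the removed part are counted too, so this does not check the deletion, and the groups are called labelled knockout below. The 7 macrophage markers other than Csf1r summed to 5491 to 8293 CPM over the 12 libraries. Markers of eosinophils, mast cells, B cells, T and NK cells and dendritic cells each summed to 9.27 CPM or less. Neutrophil markers summed to 27.5 to 64.3 CPM, and fibroblast and mesothelial markers to 119 to 350 CPM. In vehicle the latter were at 153 to 199 CPM in the libraries labelled knockout and 119 to 140 in controls. Vehicle replicate 1 labelled knockout stood apart, at 31.6 on the second principal component, where the other 2 of its group were at -4.65 and -8.73, and tests of the 8 genes that its values enter are given with and without it, while counts over gene lists include it. Levels are TMM-normalised CPM, or RPKM (the same per kilobase of exon) where genes are compared, and "called" means an adjusted p under 0.05 in edgeR's quasi-likelihood test, adjusted over all 12914 genes tested.

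The 3 ligand genes differ in a sequence feature of messenger decay. The 3′ untranslated regions of short-lived cytokine messengers often hold ATTTA pentamers, to which decay factors such as tristetraprolin bind. The stretches of 30 bases richest in ATTTA in the 3 ligand genes (GENCODE M21 transcripts, GRCm38, coding strand, 5′ to 3′) are shown because they mark the ligands' messengers as unequal in this respect, with each ATTTA in capitals.
Csf2: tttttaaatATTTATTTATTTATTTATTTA
Csf3: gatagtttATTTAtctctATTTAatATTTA
Csf1: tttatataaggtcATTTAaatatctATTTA

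Csf2 had 9 ATTTA in a 3′ untranslated region of 317 bases, which is 28.39 per kilobase, and only 0.09% of 20622 genes were as dense. It also had 4 copies of the longer TTATTTATT, which 6.9% of genes hold at least once. Csf3 had 6 ATTTA in 669 bases, a density reached by 1.81% of genes, and Csf1 had 4 in 2111 bases, a density reached by 36.54%. Csf1r had 3 in 1669 bases, a density of 1.80 per kilobase close to the 1.89 of Csf1, and Csf2ra, Csf2rb, Csf2rb2 and Csf3r had 0. A match is a description of letters and was not tested as a site.

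The promoter of Csf1 is shown because Csf1 was the most abundant ligand after stimulation and the window holds a classical NF-kB sequence on the opposite strand, shown in capitals as it reads on the printed strand. The 250 bases before the RefSeq start lie at chr3:107760470-107760719 (GRCm38.p6), printed on the minus strand, 5′ to 3′.
Csf1 promoter: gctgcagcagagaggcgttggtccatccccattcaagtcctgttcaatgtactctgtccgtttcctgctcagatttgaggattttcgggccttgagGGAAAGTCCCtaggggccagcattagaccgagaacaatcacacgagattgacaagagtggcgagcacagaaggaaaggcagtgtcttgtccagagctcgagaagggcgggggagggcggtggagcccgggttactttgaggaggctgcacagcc

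The match runs from base -154 to base -145 relative to the start. Of 32851 RefSeq promoter windows of 300 bases (250 before and 50 after the start), 0.155% hold this sequence on either strand. Windows of Csf2, Csf3r, Csf2ra and Csf2rb2 were also found and do not hold it, but not all are set on the start in the count tables. The RefSeq start lies 232 bases upstream of that start for Csf2, 118 bases upstream for Csf2rb2 and 109 bases downstream for Csf3r. A looser NF-kB form is in 50.8% of windows and so marks little. In the same 5 windows, searched on both strands, AP-1 (TGANTCA, in 7.81% of all windows) and ISRE (in 3.44%) had no match. PU.1 (AGAGGAAG, in 4.55%) was found in the windows of Csf3r and Csf2ra, and C/EBP (TTGCNNAA, in 10.8%) in that of Csf2.

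Palmitate plus LPS raised all 3 ligand genes in either genotype, lowered Csf1r and Csf2rb2, raised Csf3r, and moved neither Csf2ra nor Csf2rb past the threshold. So 6 of 8 members were called in the libraries labelled knockout and 6 of 8 in the controls, 4 higher and 2 lower each time. Csf2 and Csf3, among the 4 higher, had 0 to 6 counts in any vehicle library. They passed the filter on low counts only through the stimulated libraries, so their higher calls add little to these counts. The share of all tested genes called was 69.4% in the libraries labelled knockout (33.7% higher, 35.6% lower) and 66.7% in the controls (32.0% higher, 34.7% lower), so a call alone sets no member apart here. The median member changed by 0.77 in the libraries labelled knockout and 0.41 in the controls on the log2 scale, beside -0.06 and -0.05 for all genes. Without vehicle replicate 1 labelled knockout 6 of 8 members were again called in each genotype, beside 71.9% of all genes in the libraries labelled knockout (35.3% higher, 36.6% lower) and 73.3% in controls (35.2% higher, 38.0% lower).

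Csf1 (ENSMUSG00000014599, GRCm38 chromosome 3, 107741048 to 107760469, minus strand) had 184, 233 and 209 CPM in the stimulated libraries labelled knockout, against 2.99, 6.81 and 7.55 CPM in their vehicle libraries. In controls it had 158, 114 and 125 CPM after palmitate plus LPS, against 5.38, 4.86 and 4.80 CPM in vehicle. No stimulated library came near a vehicle one. The log2 increase was 5.15 ± 0.23 (SE; edgeR adjusted p = 3.4e-11) in the libraries labelled knockout, or 4.86 ± 0.18 with vehicle replicate 1 left out, and 4.72 ± 0.23 (edgeR adjusted p = 1.03e-10) in controls.

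Csf2 (ENSMUSG00000018916, chromosome 11, 54247271 to 54249667, minus strand) reached counts of 42, 58 and 27 after stimulation of macrophages labelled knockout, against 0 in each of their vehicle libraries. In controls it had 73, 80 and 87 counts after stimulation and 0 in each vehicle library. Csf2 messenger was thus seen only in stimulated libraries, and 0 counts allow up to 0.0438 CPM in the vehicle group labelled knockout and 0.0413 CPM in control vehicle (3 counts over each group's summed library sizes, covering counting error only). Against that limit, with the stimulated counts taken as measured, Csf2 was at least 53.2-fold higher in the libraries labelled knockout (edgeR adjusted p = 7.44e-07) and at least 102-fold higher in controls (edgeR adjusted p = 8.67e-08). With counting error on both sides, the exact 95% lower limits of these ratios were 42.6 and 82.6. The antisense gene Gm12223 overlaps Csf2 and had 1 count in the 12 libraries together. Whether counting used strand is not given in the sources used here, so reads of the pair may not be told apart.

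Csf3 (ENSMUSG00000038067, chromosome 11, 98701263 to 98703629, plus strand) reached counts of 201, 183 and 162 after stimulation of macrophages labelled knockout, against 6, 1 and 2 in their vehicle libraries. In controls it had 172, 230 and 281 counts after stimulation, against 1, 2 and 2 in vehicle. The ratio of summed counts, scaled by library size, was 76.2 (exact 95% counting interval 39.9 to 168) in the libraries labelled knockout and 175 (74.5 to 540) in controls, with edgeR adjusted p = 2.37e-10 and 7.56e-11. Of the 9 vehicle counts labelled knockout, 6 came from the library that stood apart. Without it the log2 increase in the libraries labelled knockout was 7.24 ± 0.38, where all libraries gave 6.19 ± 0.36, beside 7.33 ± 0.38 in controls.

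Per length, Csf1 was the most abundant ligand messenger after stimulation, followed by Csf3 and Csf2. The stimulated libraries labelled knockout had 39.6 ± 4.70 RPKM of Csf1, 7.14 ± 1.18 of Csf3 and 2.93 ± 1.09 of Csf2 (SD, n = 3 each), and the stimulated controls 25.2 ± 4.35, 8.50 ± 1.96 and 5.28 ± 0.43. The libraries of neighbouring ligands in this order did not overlap in either group. Csf1 then stood above 89.4% of tested genes in the libraries labelled knockout and 85.0% in controls, where in vehicle it had stood above 31.8% and 29.1%.

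**Figure D1:**
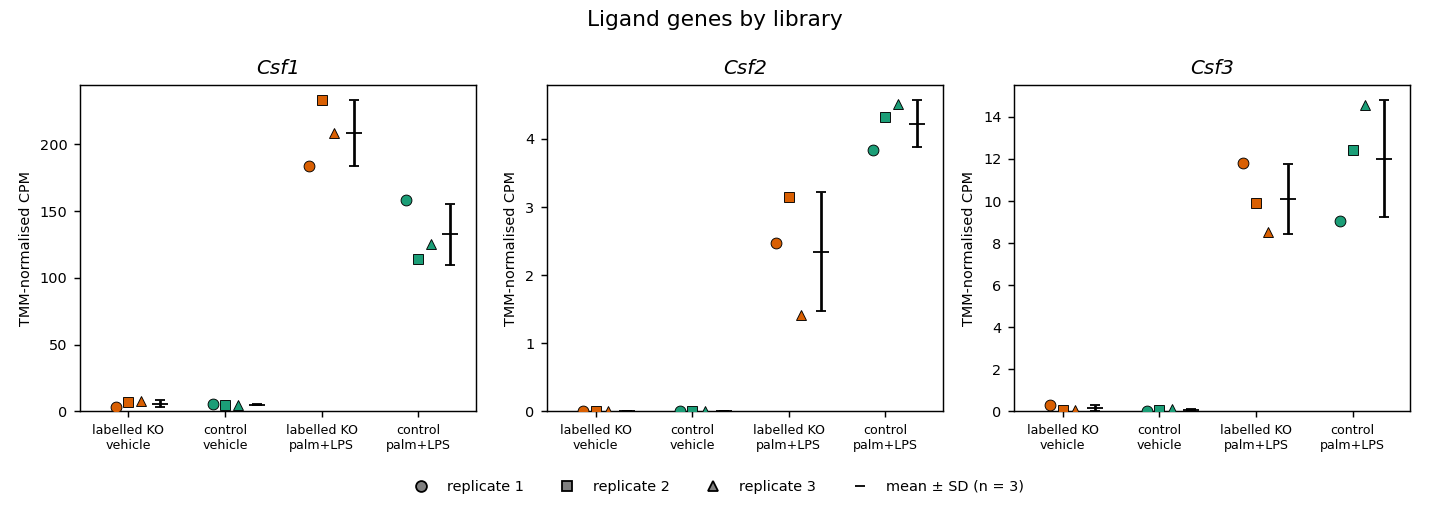
Level of the 3 ligand genes in each library, in TMM-normalised CPM on a linear axis from 0, with groups along the x axis and the mean ± SD of 3 libraries beside each group. The stimulated libraries labelled knockout sit above the stimulated controls for Csf1 (184 to 233 against 114 to 158) and below them for Csf2 (1.42 to 3.14 against 3.84 to 4.51), and the groups overlap for Csf3.

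The receptor genes were far more abundant than the ligands before stimulation. In vehicle, Csf1r had 147 ± 30.04 RPKM in the libraries labelled knockout and 127 ± 1.31 in controls, Csf2rb 143 ± 10.03 and 130 ± 3.66, Csf2ra 113 ± 58.3 and 156 ± 7.23, and Csf2rb2 84.8 ± 15.7 and 80.3 ± 2.41. Those 4 stood above at least 95.8% of tested genes in either group. Csf3r was lower, with 17.5 ± 1.42 RPKM in the libraries labelled knockout and 15.9 ± 0.15 in controls. In controls the order was Csf2ra, then Csf2rb and Csf1r, which overlapped, then Csf2rb2 and Csf3r. In the libraries labelled knockout Csf1r, Csf2rb and Csf2ra overlapped, and Csf2ra also overlapped Csf2rb2.

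Csf1r (ENSMUSG00000024621, chromosome 18, 61105572 to 61132149, plus strand), the CSF1 receptor gene, had 406, 458 and 449 CPM in the stimulated libraries labelled knockout, against 550, 790 and 815 CPM in their vehicle libraries. In controls it had 375, 354 and 356 CPM after stimulation, against 618, 627 and 614 in vehicle. It fell in each genotype, by 0.72 ± 0.12 on the log2 scale in the libraries labelled knockout (edgeR adjusted p = 4.55e-05), or 0.88 ± 0.06 with vehicle replicate 1 left out, and by 0.78 ± 0.12 in controls (edgeR adjusted p = 2.18e-05). The ratio of Csf1 to Csf1r RPKM was 0.441 ± 0.0274 in the stimulated libraries labelled knockout, against 0.00505, 0.00800 and 0.00859 in their vehicle libraries, replicates 1 to 3, and 0.339 ± 0.0471 against 0.00751 ± 0.00049 in controls.

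Csf3r (ENSMUSG00000028859, chromosome 4, 126024550 to 126044440, plus strand), the G-CSF receptor gene, had 153, 127 and 129 CPM in the stimulated libraries labelled knockout, against 57.5, 67.6 and 64.0 CPM in their vehicle libraries. In controls it had 89.4, 94.8 and 87.5 CPM after stimulation, against 56.6, 57.5 and 57.6 in vehicle. Csf3r rose in each genotype, by 1.11 ± 0.09 in the libraries labelled knockout (edgeR adjusted p = 1.4e-08), or 1.05 ± 0.08 with vehicle replicate 1 left out, and by 0.66 ± 0.09 in controls (edgeR adjusted p = 6.83e-06).

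Csf2rb and Csf2rb2, the signalling chain genes, lie next to each other on chromosome 15 (Csf2rb, ENSMUSG00000071713, 78325990 to 78351000, plus strand, and Csf2rb2, ENSMUSG00000071714, 78282517 to 78305603, minus strand). Their coding sequences share 95.2% of 2628 aligned bases in GENCODE M21, and 18.4% of all 50-base windows of the Csf2rb transcript also occur in Csf2rb2. How the authors counted reads that fit either gene is not given in the sources used here, so the split between them is uncertain. Csf2rb2 had 289, 292 and 295 CPM in the stimulated libraries labelled knockout, against 308, 424 and 441 in their vehicle libraries, and 239, 218 and 231 in stimulated controls, against 363, 383 and 365 in control vehicle. It fell by 0.42 ± 0.11 (edgeR adjusted p = 0.00228) in the libraries labelled knockout, or 0.57 ± 0.06 with vehicle replicate 1 left out, and by 0.69 ± 0.11 (edgeR adjusted p = 2.94e-05) in controls. Csf2rb had 654 to 685 CPM in the stimulated libraries labelled knockout, against 627 to 715 in their vehicle libraries, and 614 to 673 in stimulated controls, against 601 to 635 in control vehicle. Its log2 differences were -0.03 ± 0.07 (edgeR adjusted p = 0.722), or -0.09 ± 0.06 with vehicle replicate 1 left out, and 0.06 ± 0.07 (edgeR adjusted p = 0.471).

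Csf2rb2 held 29.7%, 30.9% and 30.8% of the pair's counts in the stimulated libraries labelled knockout, against 32.9%, 37.3% and 38.5% in their vehicle libraries. In controls it held 28.0%, 24.5% and 26.1% after stimulation, against 37.7%, 37.6% and 36.9% in vehicle. Every stimulated library was below every vehicle library, and the stimulated libraries labelled knockout were above the stimulated controls. Summed as 1 gene, the pair changed by -0.16 in the libraries labelled knockout (edgeR adjusted p = 0.0877) and -0.18 in controls (edgeR adjusted p = 0.0653).

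Csf2ra (ENSMUSG00000059326, chromosome 19, 61224402 to 61228418, minus strand), the GM-CSF binding chain gene, had 238, 302 and 300 CPM in the stimulated libraries labelled knockout, against 93.8, 226 and 307 CPM in their vehicle libraries. In controls it had 378, 301 and 281 CPM after stimulation, against 294, 273 and 298 in vehicle. The groups overlapped, and the log2 differences of 0.42 ± 0.32 (edgeR adjusted p = 0.259) and 0.15 ± 0.32 (edgeR adjusted p = 0.695) did not pass. Without vehicle replicate 1 labelled knockout, which held 93.8 CPM, the difference in the libraries labelled knockout was 0.07 ± 0.18 (edgeR adjusted p = 0.741), and without vehicle replicate 3 it was 0.80 ± 0.29 (edgeR adjusted p = 0.0294).

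Scaling by library totals without TMM shifted the median of all genes by -0.37 in the libraries labelled knockout and -0.33 in controls, and 28.9% and 29.2% of called genes were then higher, where TMM gave 48.6% and 48.0%. Csf2rb was called lower under those totals, by -0.40 and -0.27, which is close to that shift. There 34.8% of the genes called between stimulated genotypes were higher, against 62.1% with TMM, and 33% against 58.4% for the interaction. The other treatment calls kept their direction.

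**Figure D2:**
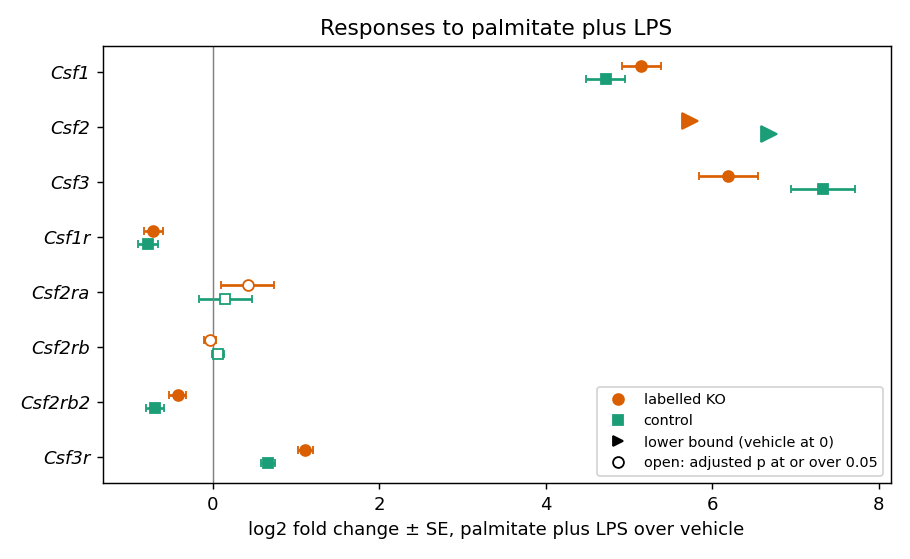
Log2 fold change of each gene with palmitate plus LPS over vehicle, with its standard error, for libraries labelled knockout and controls; triangles give the lower bound for Csf2, whose vehicle libraries are all at 0. The 3 ligand genes lie to the right by 4.72 or more, and Csf1r and Csf2rb2 lie left of 0 in either genotype.

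**Figure D3:**
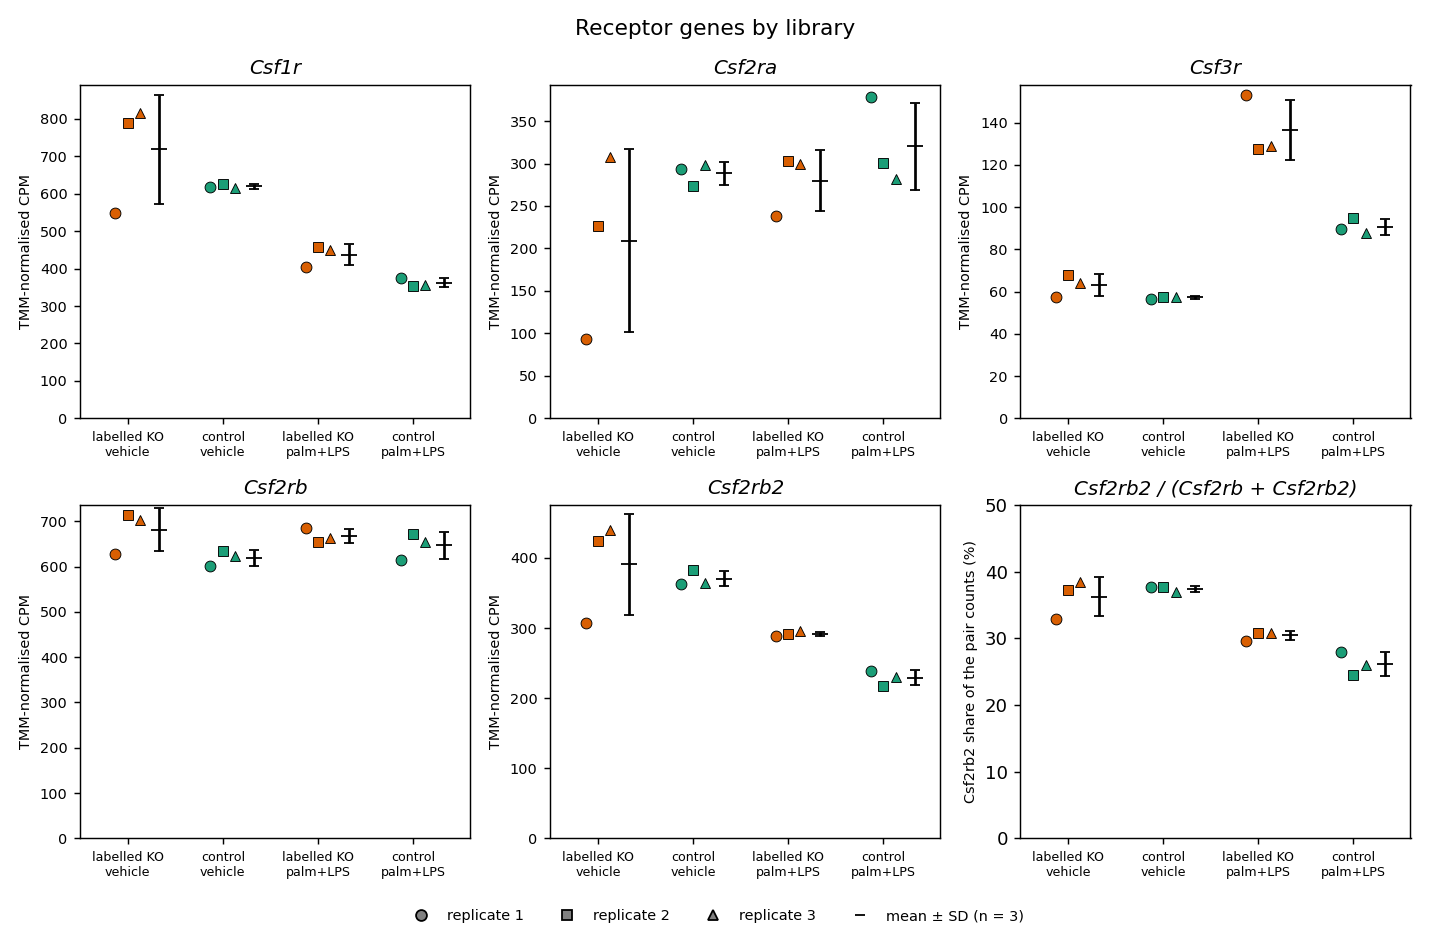
Level of the 5 receptor genes in each library in TMM-normalised CPM, and the share of the Csf2rb and Csf2rb2 counts that Csf2rb2 holds in percent, with the mean ± SD of 3 libraries beside each group. Csf1r and Csf2rb2 are lower and Csf3r higher in the stimulated libraries, and vehicle replicate 1 labelled knockout is the lowest of its group for all 5.

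The genotypes differed in 4 of the 8 genes after palmitate plus LPS. Csf1, Csf2rb2 and Csf3r were higher and Csf2 was lower in the libraries labelled knockout. Of all tested genes 16.1% were called in this comparison (10.01% higher, 6.10% lower). The median member differed by 0.16 on the log2 scale, beside -0.01 for all genes. Without vehicle replicate 1 labelled knockout, which enters the shared estimate of the spread, 5 of 8 members were called, with Csf1r added, beside 31.5% of all genes (17.5% higher, 14.1% lower).

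Csf3r was higher by 0.59 ± 0.09 (edgeR adjusted p = 0.000281), with 127 to 153 CPM in the stimulated libraries labelled knockout and 87.5 to 94.8 in the stimulated controls, and its call held in each of 19 other settings. Neutrophils carry Csf3r, and the 12 neutrophil markers other than it summed to 27.5 to 39.4 CPM in the stimulated libraries labelled knockout and 34.6 to 41.7 in the stimulated controls. In those groups S100a9 and Ly6g were at 0 counts, Cxcr2 at 1 against 2 counts over the group, S100a8 at 6.93 ± 0.33 against 15.0 ± 2.55 and Mmp8 at 10.8 ± 2.48 against 4.75 ± 0.51 CPM. Of the 6 neutrophil markers tested, Mmp8 was higher and S100a8 lower. In vehicle the marker sum was 53.8 to 64.3 CPM in the libraries labelled knockout and 32.5 to 35.9 in controls. Of the 6 tested, 2 were higher there, Mmp8 and Cxcr2, and 1 lower, Mmp9, beside 2.11% and 1.69% of all genes. Mmp8 made the largest part of that gap, at 43.7 against 16.4 CPM, and Mmp9 was at 5.9 against 10.5 CPM. In each stimulated group the library with the highest marker sum had the most Csf3r. The values were 39.4 and 153 CPM in labelled knockout replicate 1, and 41.7 and 94.8 CPM in control replicate 2. The part of neutrophils in the Csf3r difference was not tested.

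Csf1 was higher by 0.65 ± 0.19 (edgeR adjusted p = 0.0289), with 184 to 233 CPM in the stimulated libraries labelled knockout and 114 to 158 in the stimulated controls. Its call was lost without control replicate 2 or 3 or labelled knockout replicate 2 or 3 of the stimulated groups (edgeR adjusted p = 0.0731 to 0.117). Library totals (edgeR adjusted p = 0.0961) and replicate numbers as a block (edgeR adjusted p = 0.0604) also ended it. The difference was 0.65 ± 0.11 when vehicle replicate 1 labelled knockout was left out (edgeR adjusted p = 0.00126). Fibroblasts and mesothelial cells also make CSF1. Their 12 markers summed to 350, 200 and 246 CPM in the stimulated libraries labelled knockout, replicates 1 to 3, and 168, 145 and 146 in the stimulated controls. Of the 12, 6 were called higher and 0 lower, beside 10.01% and 6.10% of all genes. Pdgfrb, not called, was lower in every stimulated library labelled knockout than in the stimulated controls (15.05 ± 1.62 against 20.8 ± 2.92 CPM). In control vehicle it was at 0.38 ± 0.07 CPM. The stimulated library labelled knockout with the highest marker sum, at 350 CPM, had the least Csf1 of its group, at 184 CPM. Among the stimulated controls the library with the highest marker sum, at 168 CPM, had the most Csf1, at 158 CPM. The part of such cells in the Csf1 difference was not tested. In bulk RNA, more cells of a type and more RNA per cell cannot be told apart.

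Csf2 was lower by -0.85 ± 0.25 (edgeR adjusted p = 0.0406), with 2.47, 3.14 and 1.42 CPM in the stimulated libraries labelled knockout, against 3.84, 4.32 and 4.51 CPM in the stimulated controls. The ratio of summed counts was 0.552 (exact 95% counting interval 0.442 to 0.687), from 127 counts against 240. The call was lost when any 1 stimulated library other than labelled knockout replicate 2 was left out (edgeR adjusted p = 0.0631 to 0.132). It was also lost with replicate numbers as a block (edgeR adjusted p = 0.0615). The difference was -0.85 ± 0.22 with vehicle replicate 1 labelled knockout left out (edgeR adjusted p = 0.00429).

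Csf2rb2 was higher by 0.35 ± 0.11 (edgeR adjusted p = 0.035), with 289 to 295 CPM in the stimulated libraries labelled knockout and 218 to 239 in the stimulated controls. This call was the least stable, lost in 11 of 19 settings, among them the summed pair (0.13, edgeR adjusted p = 0.293) and library totals (0.27, edgeR adjusted p = 0.179). Leaving out any 1 stimulated library, or control vehicle replicate 1 or 2, also ended it (edgeR adjusted p = 0.0507 to 0.128). The size was the same without vehicle replicate 1 labelled knockout (edgeR adjusted p = 1.15e-05).

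The 4 other members did not pass. Csf1r differed by 0.27 ± 0.12 (edgeR adjusted p = 0.118), with 406 to 458 CPM in the stimulated libraries labelled knockout, all above the 354 to 375 of the stimulated controls, and it was called in 3 of 19 other settings, without vehicle replicate 1 labelled knockout among them (edgeR adjusted p = 0.000412). Csf3 differed by -0.25 ± 0.19 (edgeR adjusted p = 0.395), Csf2ra by -0.19 ± 0.32 (edgeR adjusted p = 0.72) and Csf2rb by 0.04 ± 0.07 (edgeR adjusted p = 0.72), with overlapping libraries.

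In vehicle, 0 of 8 members were called between the genotypes by edgeR, beside 3.80% of all genes (2.11% higher, 1.69% lower). By edgeR 0 of them had an unadjusted p under 0.05, and the 8 genes include Csf2, at 0 on each side. Called members numbered 0 with DESeq2. With no filter on low counts 1 was called (Csf2ra, lower), beside 960 of 24792 genes. Without replicate 1 labelled knockout 2 were called, beside 6.03% of all genes (3.28% higher, 2.76% lower). That library held 35.2% of the mean of the other 2 for Csf2ra, 41.6% for Csf1, 68.5% for Csf1r, 71.2% for Csf2rb2, 87.5% for Csf3r and 88.4% for Csf2rb, and 514% for Csf3, from 6 counts. Without it Csf1r was higher by 0.37 ± 0.06 (edgeR adjusted p = 0.000117), with 790 and 815 CPM in the libraries labelled knockout against 614 to 627 in controls, and Csf2rb2 by 0.22 ± 0.06 (edgeR adjusted p = 0.0211). Csf2rb was then 0.19 ± 0.06 (edgeR adjusted p = 0.0573). Csf2ra differed by -0.46 ± 0.32 with that library and -0.11 ± 0.18 without it, Csf1 by 0.23 ± 0.25 and 0.51 ± 0.21, Csf3 by 0.88 ± 0.89 and -0.16 ± 1.07, and Csf3r by 0.14 ± 0.09 and 0.20 ± 0.07.

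**Figure D4:**
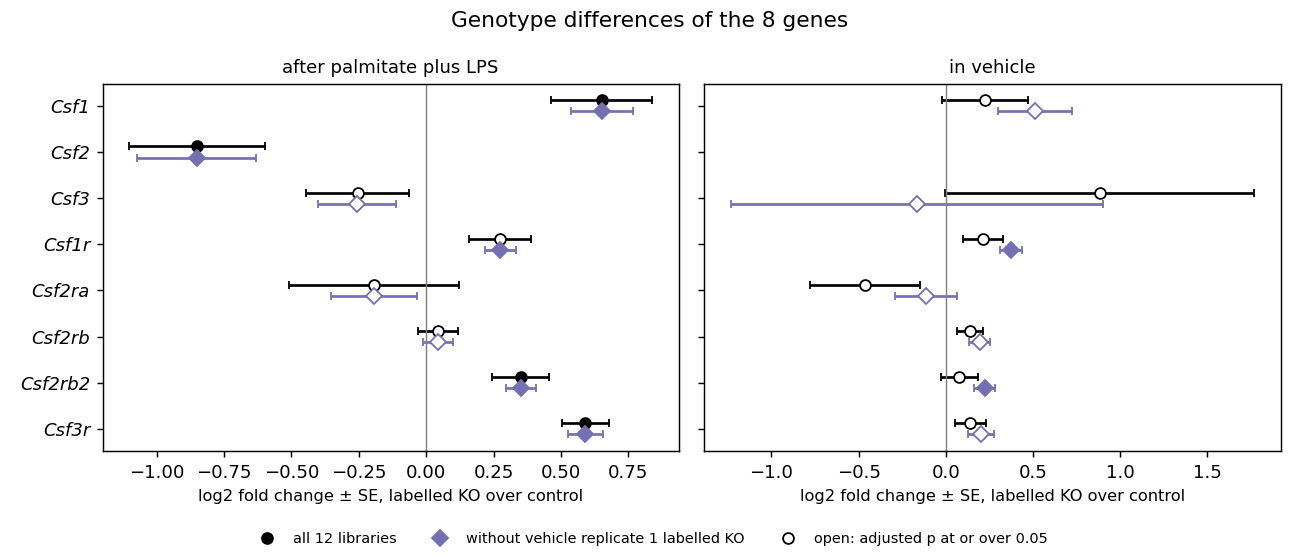
Log2 fold change of each gene, labelled knockout over control, with its standard error, after palmitate plus LPS and in vehicle, fitted to all libraries and without vehicle replicate 1 labelled knockout; filled symbols passed the threshold. After stimulation Csf1, Csf2rb2 and Csf3r lie right of 0 and Csf2 left of it in both fits; in vehicle filled symbols appear only in the fit without that library, for Csf1r and Csf2rb2.

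The response to palmitate plus LPS differed between the genotypes for Csf3r alone among the 7 genes whose difference could be estimated. Its log2 increase was larger by 0.45 ± 0.12 in the libraries labelled knockout (edgeR interaction, adjusted p = 0.0382), beside 8.05% of all genes called (4.70% higher, 3.35% lower). Csf2 has no estimate because its vehicle libraries are at 0. The other interaction estimates were 0.42 ± 0.31 for Csf1, -1.14 ± 0.92 for Csf3, 0.06 ± 0.16 for Csf1r, 0.27 ± 0.45 for Csf2ra, -0.09 ± 0.10 for Csf2rb and 0.27 ± 0.15 for Csf2rb2, with edgeR adjusted p of 0.253 to 0.836. Without vehicle replicate 1 labelled knockout that of Csf3r was 0.39 ± 0.10 (edgeR adjusted p = 0.00748), beside 13.6% of all genes (7.96% higher, 5.61% lower), and the other estimates were 0.14 ± 0.24 for Csf1, -0.09 ± 1.41 for Csf3, -0.10 ± 0.09 for Csf1r, -0.08 ± 0.24 for Csf2ra, -0.15 ± 0.08 for Csf2rb and 0.13 ± 0.08 for Csf2rb2. The Csf3r call was lost in 10 of 18 other settings, among them each fit without 1 control library, library totals (edgeR adjusted p = 0.076) and the fit with replicate numbers as a block (edgeR adjusted p = 0.0833). The 4 comparisons within a genotype or treatment share their groups with each other, so their values are set side by side and not combined.

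The genes around the family moved as follows, from lists whose members were not picked for their direction but were chosen with earlier results known. Their counts stand beside 33.7% of all tested genes called higher and 35.6% lower with palmitate plus LPS in the libraries labelled knockout, 32.0% and 34.7% in controls, and 10.01% and 6.10% between the stimulated genotypes. Relatives of the family were mostly scarce: Il3 and Il5, whose proteins also signal through CSF2RB, were at 0 counts in all libraries. Of the 9 relatives listed, Flt3l was not found by its symbol, so its level is not known here. Of the 4 tested, 2 were higher after stimulation in the libraries labelled knockout than in controls. Kitl, the ligand of the receptor kinase KIT, had 24.0 ± 1.25 CPM in the stimulated libraries labelled knockout and 13.9 ± 1.63 in the stimulated controls (0.79 ± 0.12, edgeR adjusted p = 0.000276; interaction 0.83 ± 0.16, edgeR adjusted p = 0.00756), and Kit itself 4.3 ± 0.60 and 2.30 ± 0.60 CPM (0.90 ± 0.24, edgeR adjusted p = 0.0191). In vehicle too, Kit was higher in the libraries labelled knockout, by 1.39 ± 0.35 (edgeR adjusted p = 0.0358), with 1.17 ± 0.48 CPM against 0.45 ± 0.07 in controls. Its interaction estimate was -0.49 ± 0.43. Il34, which encodes the other ligand of CSF1R, had 0.345 ± 0.405 CPM in the stimulated libraries labelled knockout and 0.228 ± 0.0573 in the stimulated controls.

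The JAK-STAT signalling list holds genes that carry the signal of the GM-CSF and G-CSF receptors and genes that inhibit it, among them Socs3 and Cish. With palmitate plus LPS, 16 of 16 members were called higher in the libraries labelled knockout and 14 of 16 in controls, 0 lower. Of all genes, 33.7% and 32.0% were called higher. The feedback inhibitor gene Socs3 rose by 5.60 ± 0.14 in controls (edgeR adjusted p = 1.04e-14) and the kinase gene Jak2 by 3.11 ± 0.09. Between the stimulated genotypes 7 of 16 were higher and 3 lower. Stat3 was higher (0.49 ± 0.10), and Cish, an inhibitor that STAT5 induces, was lower, at 45.0 ± 7.71 CPM in the stimulated libraries labelled knockout and 77.0 ± 12.9 in the stimulated controls (-0.77 ± 0.16, edgeR adjusted p = 0.00309).

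Among CSF1R signalling adaptors and enzymes with palmitate plus LPS, the libraries labelled knockout had 6 of 19 higher and 11 lower, and the controls 3 higher and 12 lower, against 35.6% and 34.7% of all genes called lower. In controls the docking protein gene Dok2 fell by 2.51 ± 0.13, while the kinase gene Src rose by 2.85 ± 0.09 and Pstpip2 by 2.04 ± 0.11. Between the stimulated genotypes 2 were higher, Pik3cd (0.59 ± 0.15) and the adaptor gene Gab2 (0.47 ± 0.13), and 2 lower, among them the kinase gene Mapk3 (-0.41 ± 0.08).

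Genes of Csf1r transcription and shedding were called 4 higher and 4 lower of 9 with palmitate plus LPS in each genotype. The transcription factor gene Cebpb rose by 2.53 ± 0.15 in controls and Ets2 by 2.27 ± 0.16. Between the stimulated genotypes 3 of 9 were higher and 2 lower. The lower ones were Cebpa (-0.91 ± 0.19) and Cebpb (-0.55 ± 0.14).

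Of 12 transcription factors that act on inducible Csf2 and Csf3, 6 were higher and 3 lower with stimulation in each genotype, and 0 higher and 1 lower between the stimulated genotypes. Nfkbiz, a nuclear cofactor of NF-kB, rose by 3.51 ± 0.14 in controls and Nfkb1 by 2.67 ± 0.10, and Fos fell by 2.42 ± 0.11. Junb was the member lower in the stimulated libraries labelled knockout (-0.46 ± 0.14, edgeR adjusted p = 0.0343). Among 8 genes of messenger decay and stability, not all of them tied to ATTTA, 4 were higher and 2 lower with stimulation in each genotype. Between the stimulated genotypes 2 were higher and 1 lower. Zfp36, which encodes tristetraprolin, had 267 ± 37.3 CPM in the stimulated libraries labelled knockout and 207 ± 22.9 in the stimulated controls, with libraries that overlapped (0.37 ± 0.11, edgeR adjusted p = 0.0268). The RNase gene Zc3h12a had 46.0 ± 3.47 and 66.3 ± 1.69 CPM (-0.53 ± 0.10, edgeR adjusted p = 0.00134), and Rc3h1 differed by 0.38 ± 0.12.

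Of 7 genes that GM-CSF is known to raise in macrophages or their precursors, 0 were higher and 2 lower between the stimulated genotypes. In vehicle 3 were higher, Pparg, Irf4 and Dcstamp, and 0 lower, where 2.11% of all genes were higher and 1.69% lower. Pparg is the gene that the LysM-PPARg groups target, so its difference between genotypes cannot be read as a response to GM-CSF. Lower after stimulation were the chemokine gene Ccl17, at 3.35 ± 0.90 CPM in the stimulated libraries labelled knockout and 5.97 ± 1.71 in the stimulated controls (-0.84 ± 0.25, edgeR adjusted p = 0.0341), and the cell fusion gene Dcstamp (-0.36 ± 0.10, edgeR adjusted p = 0.0231). With palmitate plus LPS, the libraries labelled knockout had 2 of the 7 higher and 3 lower, and the controls 3 higher and 2 lower. In controls Pparg fell by 4.11 ± 0.14 (edgeR adjusted p = 3.22e-13), Ccl17 rose by 7.48 ± 0.52 and Ccl22 by 6.13 ± 0.32.

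Over the 12 libraries, the genes with the profile most like that of each member were found by Pearson's r of log2 CPM, which here mostly reflects the separation of stimulated from vehicle libraries. Closest to Csf1 were Oas3, Zcchc2 and Rhbdf2 (r = 0.998 each), to Csf3 Slamf1, F10 and Ccl3 (0.997 to 0.998), and to Csf2 Arhgap35, Lta and Atp2a2 (0.991 to 0.992). For Csf3r they were Mgat1 (0.994), Ifi207 (0.991) and Hk3 (0.989), for Csf1r Man2b2 (0.98), Sestd1 (0.977) and Cd109 (0.976), and for Csf2rb2 Swap70 (0.992), Atp6v1a and Man2b2 (0.988 each). For Csf2ra, whose profile follows the low value of vehicle replicate 1 labelled knockout, they were Uqcrfs1 (0.971), Mff (0.969) and Gga1 (0.962), and no gene exceeded 0.879 for Csf2rb (H6pd).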

How the data were processed

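Sequencing libraries came from total RNA and a Clontech SMARTer kit, per the labels' protocols. Per the submitters' processing notes, tools were STAR 2.0.4b, featureCounts 1.45 (Subread) and bcl2fastq 2.0, with build GRCm38. No source used here gives the annotation release or strand option. The authors deposited, per library, raw counts of 41388 Ensembl genes with exon length. The deposited CPM equalled each count over its library total, rescaled, and the deposited RPKM that CPM per kilobase of exon; neither entered a test. Symbols were found for 40254 IDs.

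From the counts, edgeR's filterByExpr kept 12914 genes, which hold 99.92% or more of any library. Scaling used TMM, and edgeR 4.0.16 (R 4.3.3) fitted a quasi-likelihood model with robust dispersions and 1 mean per group to all 12 libraries, adjusting p over all genes (Benjamini-Hochberg). The fit was tested on simulated data. DESeq2 1.42.0 and other settings were tried as alternatives (closing section). Named genes were all 8 members, Pparg, and from each list the 3 with the smallest p after stimulation between genotypes and in the treatment of controls; Il3, Il5 and Il34, markers and the genes of counts under 5 were named after their values were seen. Some genes this rule selects are not reported here. Members and lists were chosen with earlier results of these data known. Replicate numbers were not used as pairs: 1 of 18 correlations of same-numbered libraries' deviations exceeded 0.1. Counting intervals and floors cover counting error only.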

Additional observations from a re-analysis of the deposited data

Results flagged for a closer look

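The response of Csf3r to palmitate plus LPS was larger in the libraries labelled knockout than in controls, by 0.45 ± 0.12 on the log2 scale (edgeR interaction, adjusted p = 0.0382), with 3 libraries in each of the 4 groups. All 3 stimulated libraries labelled knockout were above all stimulated controls. Over 18 other settings the adjusted p ran between 0.00748 and 0.107, and the call was lost in 10 of them.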

How the results depend on the processing

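Of 715 member fold changes recomputed under alternative settings, 660 kept their direction and side of the threshold, 35 lost a call, 9 gained one and 11 changed sign; of 658 list counts, 100 moved beyond 1.5 times. The causes were not tested. Between genotypes in vehicle, 0 members and 491 of 12914 genes were called. With no filter on low counts, where 24792 genes were tested, these were 1 and 960. With only the 2 groups compared, 233 genes were called. After palmitate plus LPS, 4 members and 2081 genes were called; library totals without TMM gave 2 members and only the 2 groups compared gave 3816 genes. For the interaction, 1 member and 1039 genes were called. Library totals gave 0 members, and no filter gave 1875 of 24792 genes. With the replicate block 1 member was called between genotypes after palmitate plus LPS, and for the interaction 0 members and 514 genes; the replicate numbers are not shown to pair the libraries.

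Leaving out 1 library at a time gave 0 to 2 members and 261 to 779 genes between genotypes in vehicle, 1 to 5 and 1223 to 4069 after palmitate plus LPS, 6 to 7 and 8382 to 9289 for the treatment of libraries labelled knockout, 6 and 7951 to 9462 for that of controls, and 0 to 1 and 433 to 1985 for the interaction. The highest counts between genotypes came without vehicle replicate 1 labelled knockout, the highest interaction count without vehicle replicate 3 labelled knockout.

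Signs changed only for differences not called with TMM and all libraries. With library totals, the log2 differences were -0.038 for Csf2rb between stimulated genotypes, and -0.18 for Csf2ra and -0.27 for Csf2rb in the treatment of controls, the last then called (edgeR adjusted p = 0.00714). Summed with Csf2rb2, Csf2rb was -0.18 in the treatment of controls and 0.016 for the interaction. Over the fits that left out 1 library, the ranges were -0.16 to 1.35 for Csf3, -0.017 to 0.22 for Csf2rb2 between genotypes in vehicle, -0.0027 to 0.073 for Csf2rb between stimulated genotypes, -0.088 to 0.0046 for Csf2rb in the treatment of libraries labelled knockout, and for the interaction -0.10 to 0.16 for Csf1r and -0.080 to 0.65 for Csf2ra. Depth limits Csf2 and vehicle Csf3, with few or 0 counts.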
